A study of Mus musculus with 2 samples.

Results

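The miRNA genes described here are Mir126a, Mir126b, Mir221 and Mir222, 4 of the 2202 miRNA genes counted in the hearts of newborn mice. They were taken by gene symbol, with earlier results of these data known. The hearts came from male mice of the strain B6CASTF1/J, the first-generation hybrid of C57BL/6J and CAST/EiJ, at an age of 4 days. There were 2 microRNA-seq libraries, 1 from male 03 (replicate 1) and 1 from male 04 (replicate 2). They form a single group with no treatment and no control, so levels are described and the libraries are compared with each other. Both animals carry the same donor identifier in the labels. If the RNA did not come from separate animals, the spread between the libraries is technical. Whole hearts were used, in which fewer cells of a type and less miRNA per cell cannot be told apart.

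A miRNA is cut from a hairpin precursor as a short RNA that guides the Argonaute silencing complex to messenger RNAs. Bases 2 to 8 of the mature strand, the seed, do most of the target recognition, so miRNAs with the same seed can share targets. miR-126 is the classic miRNA of endothelial cells, the cells that line blood vessels and the inner heart. It is made from an intron of Egfl7, a gene for a protein secreted by endothelial cells, and it sustains vascular endothelial growth factor signalling by repressing the inhibitor Spred1 and the phosphatidylinositol 3-kinase subunit Pik3r2. miR-221 and miR-222 come from 1 primary transcript. In endothelial cells they repress the receptor Kit and restrain migration and tube formation, whereas in smooth muscle cells they repress the cell cycle inhibitor Cdkn1b and favour growth. They are therefore not restricted to endothelium.

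All 4 genes matched hairpins of the RefSeq table (GRCm38.p6) at the same coordinates as in GENCODE M21 (mm10). Mir126a lies at chr2:26591357-26591429 on the plus strand and Mir126b at chr2:26591363-26591420 on the minus strand. The 58 bases of Mir126b lie wholly inside the 73 bases of Mir126a. The hairpins are shown 5′ to 3′ because their overlap decides how reads were counted, and capitals mark the RefSeq mature sequences.

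Mir126a hairpin: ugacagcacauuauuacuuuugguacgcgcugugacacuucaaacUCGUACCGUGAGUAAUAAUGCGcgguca
Mir126b hairpin: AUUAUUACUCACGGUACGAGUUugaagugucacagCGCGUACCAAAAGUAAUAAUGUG

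In the mature sequences that follow, capitals mark the seed, by which the genes fall into families.

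miR-126a-3p: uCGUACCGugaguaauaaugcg
miR-126b-5p: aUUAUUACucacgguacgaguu
miR-126b-3p: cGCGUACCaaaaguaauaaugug
miR-221-3p: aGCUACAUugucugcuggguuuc
miR-222-3p: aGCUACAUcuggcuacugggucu
miR-221-5p: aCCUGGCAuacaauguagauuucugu

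The RefSeq sequences used here include no 5p strand for miR-126a or miR-222, so these strands were not compared. Among the strands shown, those of miR-126a and miR-126b have different seeds. miR-126a-3p is complementary to miR-126b-5p over a run of 19 bases, since they are read from opposite strands of the same DNA. It also shares a 10-base run near its 3′ end with miR-126b-3p. Among the 1738 mature mouse sequences of the table, the seeds of miR-126a-3p, miR-126b-3p, miR-126b-5p and miR-221-5p each occurred once. miR-221-3p and miR-222-3p have the seed GCUACAU in common and match over their first 8 bases, and at 11 of 23 positions counted from the 5′ end. The only other mature sequence with this seed was miR-1928, whose gene Mir1928 had 0 counts in both libraries (up to 0.715 and 0.789 CPM, the level of 3 counts).

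The annotation places Mir126a inside Egfl7, on the same strand, in an intron of 8 of its transcripts and in an exon of 1 retained-intron transcript. It also lies in an intron of the readthrough gene model Gm20532. Mir221 (chrX:19146294-19146388) and Mir222 (chrX:19146893-19146971) lie on the minus strand with 504 bases between them. No other annotated gene lies within 10 kb of that pair. None of the 4 hairpins shares a 20-base window on the same strand with another annotated miRNA hairpin. Copies elsewhere in the genome were not searched.

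Levels are sense counts, reads on the gene's own strand, as CPM, counts scaled to a library total of 1000000. The unscaled totals were 4196577 and 3801738 sense counts in replicates 1 and 2. Intervals cover the counting error of reads only. They leave out the spread between libraries, and PCR copies of a molecule are counted more than once. A gene's count adds up both arms of its hairpin, so the arms cannot be told apart here.

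Mir126a was among the miRNA genes with the most uniquely assigned reads in the neonatal heart. It had 458262 sense counts in replicate 1, which is 109199 CPM or 10.9% of the library. In replicate 2 it had 187540 counts, which is 49330 CPM or 4.93%. It ranked at number 2 in the first library and number 6 in the second, of 2202 genes. These ranks leave out multi-mapped reads, 38.1% and 42.3% of all reads, and 1084 of the 2202 hairpins share a 20-base window with another, so genes with near-identical copies can be ranked too low. Its share of the library was thus much larger in replicate 1 than in replicate 2, and the mean level was 79265 ± 42334 CPM (SD, n = 2).

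Mir221 was present at a moderate level. It had 1155 counts or 275 CPM in replicate 1 (95% Wilson interval 260 to 292) and 1516 counts or 399 CPM in replicate 2 (379 to 419). The mean was 337 ± 87.4 CPM (SD, n = 2), at ranks 130 and 98. The library that was low in Mir126a was thus the higher one in Mir221.

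Mir222 was lower and nearly equal in the libraries. It had 184 counts or 43.8 CPM (95% Wilson interval 38.0 to 50.6) in replicate 1 and 169 counts or 44.5 CPM (38.2 to 51.7) in replicate 2, a mean of 44.2 ± 0.43 CPM (SD, n = 2). Mir222 ranked at 215 and 203. On the X chromosome, which males carry in a single copy, Mir221 was number 14 and Mir222 number 24 by mean CPM of 38 genes with 10 or more counts over both libraries.

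Mir126b, the hairpin on the other strand of the Mir126 locus, had 3 sense counts in replicate 1 and 0 in replicate 2. Its level was 0.715 CPM in replicate 1 (95% Wilson interval 0.243 to 2.10). The Wilson interval of the 0 counts in replicate 2 ran up to 1.01 CPM, where 3 counts would be 0.789 CPM. Both counts lie at or under the limit of 3 counts, so no ratio is given. The order Mir126a, Mir221, Mir222, Mir126b held in both libraries, with no overlap between the values of neighbours in it.

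**Figure D1:**
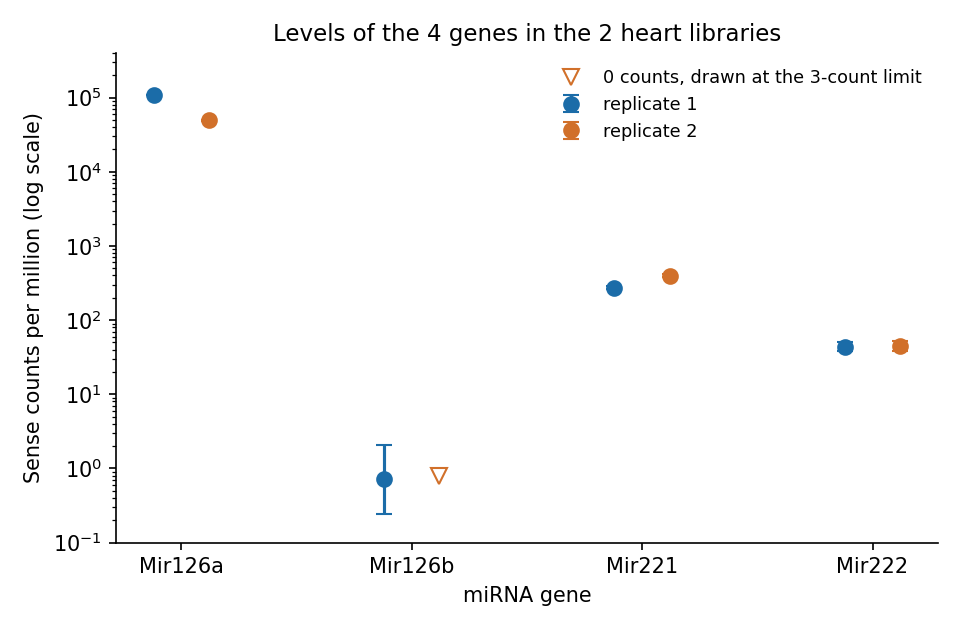
Sense counts as CPM (y axis, log scale) of the 4 genes (x axis) in replicate 1 (blue) and replicate 2 (orange), with 95% Wilson intervals that are smaller than the points for Mir126a and Mir221. Mir126a lies at 109199 and 49330 CPM, Mir221 at 275 and 399, Mir222 at 43.8 and 44.5, and Mir126b at 0.715 CPM and at 0 counts, which is drawn as an open triangle at the 3-count limit.

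The deposited tables count each gene in 3 columns, and the overlap of the Mir126 hairpins makes these differ by orders of magnitude. With strand ignored, Mir126a had 28 counts in replicate 1 and 1 in replicate 2. In the column for the opposite strand, Mir126b had 458234 and 187539 counts, which are the Mir126a reads seen from the other side. The sense counts of Mir126a exceed these by 28 and 1. The same numbers are left to Mir126a when strand is ignored, so the accounts close exactly: those few reads touch Mir126a but not Mir126b, and every other Mir126a read was set aside as ambiguous.

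Reads over both Mir126 hairpins came to 458237 in replicate 1 and 187539 in replicate 2. They made up 41.8% of the 1096846 reads that were ambiguous without strand in replicate 1 and 24.5% of the 766383 in replicate 2. Mir221 and Mir222, which have no overlapping partner, had the same counts with and without strand, and 0 counts on the opposite strand in both libraries.

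The few Mir126b reads were compared with the strand background. Over the 2138 genes with no miRNA gene on the opposite strand, 76 reads fell on the opposite strand in each library, or 24.5 per 1000000 reads of these genes in replicate 1 and 25.0 in replicate 2. Minus-strand reads at the Mir126 locus were 6.55 per 1000000 reads of the locus in replicate 1 (95% exact binomial interval 1.35 to 19.1). In replicate 2 they were 0, with an exact binomial interval up to 19.7 per 1000000. The Mir126b counts were thus below the average rate of opposite-strand reads. That rate is uneven across genes. Of those with 100 or more sense counts, 217 of 228 in replicate 1 and 206 of 214 in replicate 2 had no such reads. A single gene held 9 of the 76 reads in replicate 1, and a different gene held 18 of the 76 in replicate 2. Whether the Mir126b reads are background was not tested.

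**Figure D2:**
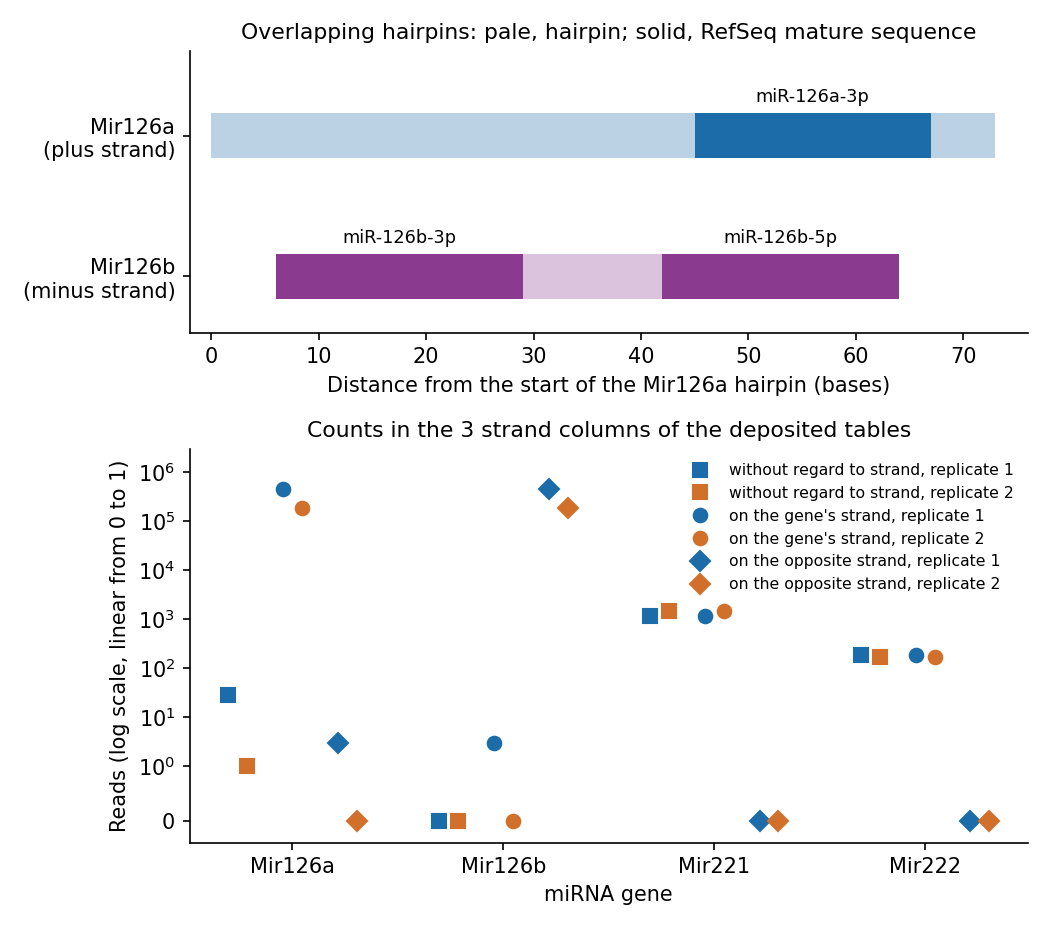
Top, the Mir126a (blue) and Mir126b (purple) hairpins by distance in bases from the start of Mir126a, with mature sequences in solid colour. Bottom, reads (y axis, log scale that is linear from 0 to 1) of the 4 genes in the 3 deposited columns, in replicate 1 (blue) and replicate 2 (orange): Mir126a drops from 458262 and 187540 on its own strand to 28 and 1 without regard to strand, while Mir221 and Mir222 are the same in both.

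Between the libraries, Mir126a and Mir221 went in opposite directions. Mir126a was 2.21-fold higher in replicate 1, a log2 ratio of replicate 2 over replicate 1 of -1.15 (95% counting interval -1.15 to -1.14). Mir221 was 1.45-fold higher in replicate 2, with a log2 ratio of 0.53 (0.42 to 0.64). For Mir222 the log2 ratio was 0.02 (-0.28 to 0.32), an interval that includes 0. It leaves room for a difference in either direction.

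Each gene was compared with the rest of its library by a two-sided Fisher's exact test, which compares these 2 libraries and takes counting error as the only error. Mir126a passed at an adjusted p below 1e-300 and Mir221 at 5.89e-21 (Fisher's exact test, Benjamini-Hochberg over 441 genes). Mir222 did not pass, at an adjusted p of 0.947. Of the 3 genes tested here 1 was lower in replicate 2 and 1 higher, beside 36.5% of all 441 genes that were called lower, 20.4% called higher and 56.9% called in either direction. At this depth a call was thus the more common outcome for any gene.

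The spread between the libraries beyond counting error was large, with a biological coefficient of variation of 0.379 over genes. edgeR's exact test, which takes that spread into account, gave adjusted p = 1 for Mir126a, Mir221 and Mir222, and unadjusted p of 0.255, 0.327 and 0.752. With 1 spread for all genes it called 2 of 441 genes (0.454% higher and 0% lower in replicate 2), and 25 had an unadjusted p under 0.05. The 2 genes, named after their values were seen, were Mir26a-1 and Mir9-3, whose hairpins both share windows with others. With the spread estimated per gene, edgeR's exact test called 0 of 441, and Mir26a-1 alone had an unadjusted p under 0.05. The unadjusted p was then 0.285 for Mir126a, 0.341 for Mir221 and 0.733 for Mir222. The spread was in each case estimated from the libraries under comparison. It therefore contains the difference under test, and few calls can be expected.

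Among the 243 genes that averaged 100 or more counts, Mir126a had the 35th largest absolute log2 ratio, Mir221 the 105th and Mir222 the 238th. The rank of Mir126a was 47 with edgeR's TMM scaling and 55 with DESeq2's size factors. Over 2-fold apart were 16.9% of these genes, and of the 3 genes Mir126a was past that fold. It was under 2-fold with edgeR's TMM scaling (1.87-fold) and with DESeq2's size factors (1.78-fold), which shift all ratios upward by 0.24 and 0.31. Of the 20 most abundant genes, none had a larger absolute log2 ratio than Mir126a when scaled by total counts. With TMM scaling Mir335 and Mir99a did, and with DESeq2's size factors Mir143, Mir335 and Mir99a did. The log2 ratio of Mir221 was 0.78 and 0.85 under these scalings, and that of Mir222 was 0.26 and 0.33.

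**Figure D3:**
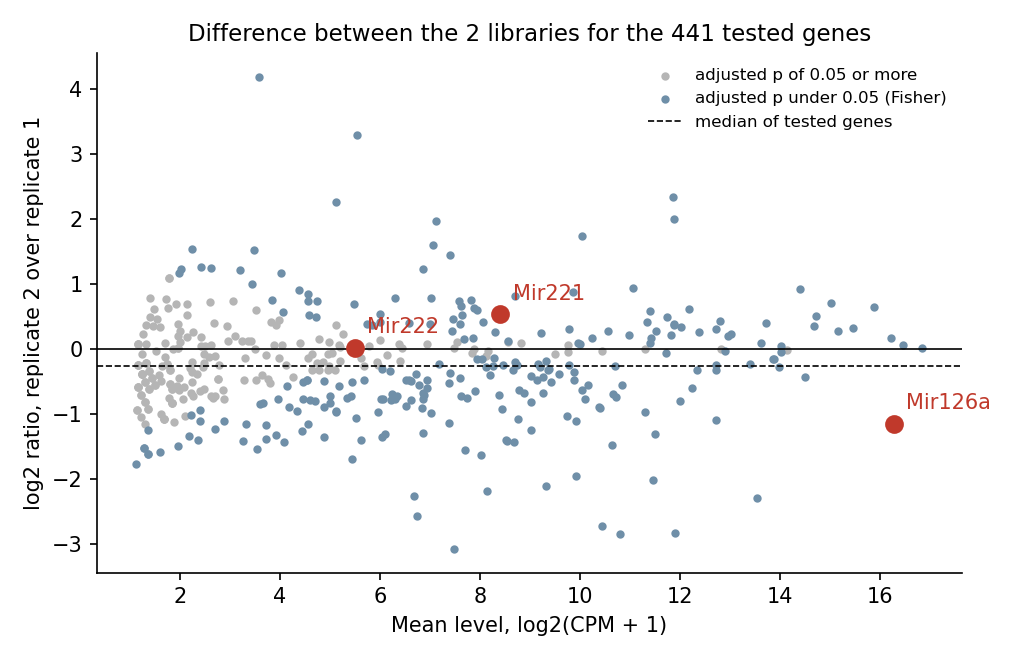
Log2 ratio of replicate 2 over replicate 1 (y axis) against mean level, log2(CPM + 1) (x axis), for the 441 tested genes, with Mir126a, Mir221 and Mir222 in red and genes past Fisher's exact test in blue. Mir126a lies at -1.15 at the right edge, Mir221 at 0.53 and Mir222 at 0.02, beside a median of -0.26 over all tested genes (dashed).

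Ratios within a library do not depend on its scaling. Mir221 had 6.28 times the reads of Mir222 in replicate 1 (95% exact binomial interval 5.37 to 7.37) and 8.97 times in replicate 2 (7.65 to 10.6). Per base of hairpin, which is 95 bases for Mir221 and 79 for Mir222, the ratios were 5.22 and 7.46. Mir221 thus had 86.3% and 90.0% of the 1339 and 1685 reads of the pair. How many of these reads came from the 3p arms that carry the shared seed cannot be told from counts per gene.

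The log2 ratio of Mir221 to Mir222 was 2.91 ± 0.36 (SD, n = 2), so Mir221 exceeded Mir222 by much more than the libraries differed. It was 0.52 larger in replicate 2 (95% counting interval 0.19 to 0.84), and this change passed Fisher's exact test over the 3 ratios compared (adjusted p = 0.00171). Although both miRNAs are cut from 1 transcript, their ratio of reads changed by more than counting error. Fisher's exact test leaves out spread beyond counting error, and no test of the ratios that allows for it was run. Such a gap and such a change were common among 107 neighbouring miRNA pairs on 1 strand within 10 kb. Of these pairs, with 10 or more counts in each library, 46 had a wider mean gap and 59 a larger change between the libraries. The medians over these pairs were 2.30 for the absolute log2 ratio and 0.59 for its change. The pairs were not matched to Mir221 and Mir222 for the number of counts, so part of their changes can be counting error.

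Mir126a stood far above the pair on the X chromosome. It had 397 times the reads of Mir221 in replicate 1 (95% exact binomial interval 375 to 421) and 124 times in replicate 2 (118 to 130). Per base of hairpin these were 516 and 161. The log2 ratio fell by 1.68 from replicate 1 to replicate 2 (adjusted p = 1.13e-193, Fisher's exact test). Against Mir222 it had 2491 and 1110 times the reads, a log2 ratio that fell by 1.17 (adjusted p = 1.52e-13, Fisher's exact test). Here too the test takes counting error as the only error. The values are ratios of reads, and the number of molecules behind a read was not tested.

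Genes of the most similar levels were found by the distance between the pairs of log2(CPM + 1) values, over 2 libraries only. Nearest to Mir126a were Mirlet7g (71157 and 80315 CPM), Mirlet7i (88255 and 92532 CPM) and Mir378a (116964 and 118672 CPM), at distances of 0.94, 0.96 and 1.27. These 3 genes had slightly higher CPM in replicate 2, unlike Mir126a. Nearest to Mir221 were Mir376a at 0.22, Mir450b at 0.38 and Mirlet7a-1 at 0.40. The counts of Mir378a and Mirlet7a-1 are uncertain, since their hairpins have 20-base windows in common with others. Nearest to Mir222 were Mir331 at 0.11, Mir196b at 0.21 and Mir667 at 0.32.

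A list of 38 miRNA genes studied in endothelial cells and blood vessel growth, including these 4, was set beside them. Fisher's exact test called 16 of its 36 tested genes higher in replicate 2 and 16 lower, beside the shares of 20.4% and 36.5% over all genes. Fisher calls depend on the number of counts, for which these shares are not matched to the list. Among genes that averaged 100 or more counts, 15 of 31 list genes were called higher and 15 lower. Of all 243 genes at that depth 202 were called, 76 of them higher and the rest lower. The median log2 ratio of the list was -0.0036 (-0.26 over all tested genes). The 4 most abundant genes of the list outside the 4 described were Mir23b (log2 ratio 0.33), Mir23a (0.28), Mir322 (0.36) and Mir99b (0.04). With TMM scaling the calls were 17 higher and 11 lower, beside 28.1% and 26.3% of all genes. With DESeq2's size factors they were 18 and 10, beside 30.8% and 23.6%. The shares over all genes under these scalings are not matched for the number of counts either. edgeR's exact test, which allows for spread beyond counting error, called 0 of the 36 genes in either direction. This held with 1 spread for all genes and with a spread per gene, each estimated from these same libraries. Without the 4 genes the list had 15 higher and 15 lower of 33. The Fisher calls of the list were thus divided between the directions under each of these scalings. Of the 38 hairpins, 14 share 20-base windows with other hairpins, and their counts are uncertain.

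**Figure D4:**
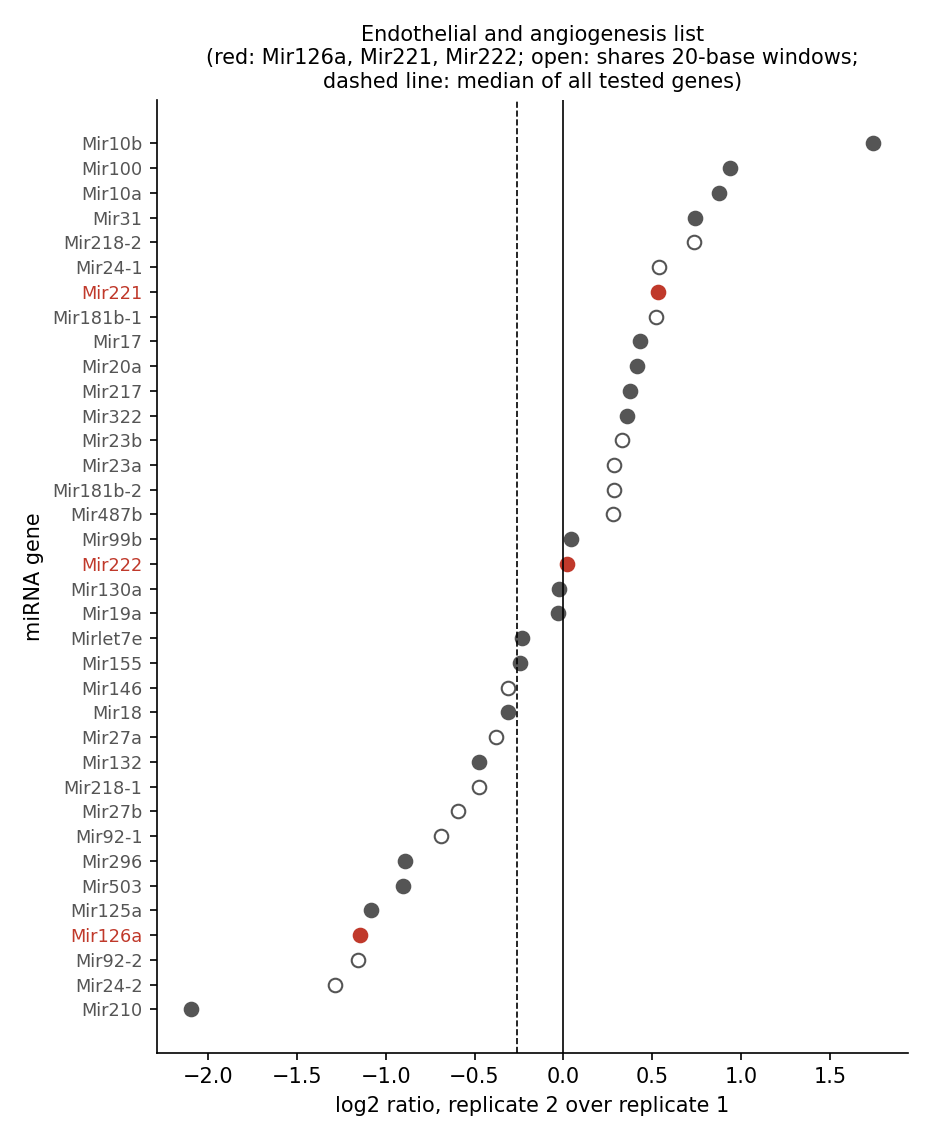
Log2 ratio of replicate 2 over replicate 1 (x axis) for each of the 36 tested genes (y axis) of the endothelial and angiogenesis list, in order of the ratio. Mir126a (-1.15), Mir222 (0.02) and Mir221 (0.53) are in red, open points share 20-base windows with another hairpin, and the dashed line is the median of all tested genes at -0.26.

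Markers of other cell types also differed between the libraries, as summed CPM of each list in replicates 1 and 2, scaled by total counts. The counts of genes called higher or lower are by Fisher's exact test, by which 20.4% of all 441 genes were called higher and 36.5% lower, so that calls in lists this short say little. edgeR's exact test, with its spread estimated from these same libraries, called none of these markers but Mir9-3, and with a spread per gene none. Smooth muscle and pericyte markers (Mir143 and Mir145a, both called higher in replicate 2) came to 48576 and 79468 CPM. Heart muscle markers, of which Mir499 was the highest at 5794 and 4633 CPM, came to 13094 and 8924 CPM. Of these 7 genes 3 were called lower in replicate 2 (Mir208a, Mir208b and Mir499) and 2 higher (Mir1a-2 and Mir133a-1). The 4 hairpins of Mir1a and Mir133a have copies with shared 20-base windows. A read that maps to more than 1 place is counted for no gene, so their counts of 5 to 207 do not give the level of miR-1 or miR-133. White blood cell and platelet markers (Mir142, Mir223 and Mir150, all 3 called higher in replicate 2) came to 523 and 735 CPM. Fibroblast markers, nearly all from Mir214, came to 6716 and 964 CPM, with Mir199a-1 at 0 counts in both libraries and the other 2 genes called lower in replicate 2. The hairpins of Mir199a-1 and Mir199a-2 also share windows, and their counts are uncertain.

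Mir143 and Mir145a were thus higher in the library where Mir126a was lower. Red blood cell markers came to 493 and 400.3 CPM, with 2 of 3 genes called lower in replicate 2. Their log2 ratio of -0.30 would be cancelled by the shift of 0.31 with DESeq2's size factors. The liver marker Mir122 came to 309 and 105 CPM. Epithelial markers came to 299 and 354 CPM, with 2 of 5 genes called higher and 1 called lower in replicate 2. Neuron markers came to 0.238 and 22.1 CPM, nearly all from Mir9-3 with 1 and 82 counts, and 4 of 6 had 0 counts in both libraries. All 6 hairpins share windows with copies, whose multi-mapped reads are not counted, so these zeros do not show that miR-124 or miR-9 was absent. The endothelial cell markers were Mir126a and Mir126b themselves, so this list holds no marker independent of the genes described. The part of these shifts in the difference of Mir126a or Mir221 was not tested.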

How the data were processed

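Small RNA libraries (size range under 30, per the labels) from 2 hearts were analysed. Raw counts of reads per miRNA gene, with no normalization, were deposited by the authors, aligned to mm10 and counted over GENCODE M21 per the file headers of the description files. The aligner is not given in the sources used here. Strand columns were identified from the values. Reads that name no gene (unmapped, multi-mapped, unassigned, ambiguous) were left out of library sizes. Multi-mapped reads were 38.1% and 42.3% of all reads, and sense counts 43.8% and 40.9%. Loss of CAST/EiJ alleles in alignment was not tested.

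CPM used column 3 over its total, and log2 ratios a pseudocount of 1 CPM. Genes with 10 or more counts over both libraries were tested by Fisher's exact test (SciPy 1.17.1), adjusted by Benjamini-Hochberg at 0.05 over all genes tested. edgeR 4.0.16 (exact test with a common dispersion and, added after seeing the data, with a dispersion per gene; its quasi-likelihood test has 0 residual degrees of freedom here) and DESeq2 1.42.0 size factors were alternatives. Sequences are from RefSeq (GRCm38.p6).

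Members and lists were chosen with earlier results of these data known. Genes named are the 4 members, the 4 most abundant others of the endothelial list, the 3 nearest in level, genes sharing a seed, genes within 10 kb and cell type markers. Mir335, Mir99a, Mir143 and Mir26a-1 were named after their values were seen.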

Additional observations from a re-analysis of the deposited data

How the results depend on the processing

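Counted without regard to strand, the mean level became 4.68 CPM for Mir126a, 436 CPM for Mir221 and 57.5 CPM for Mir222, and the mean log2 ratio of Mir126a turned to -7.97 against Mir221 and -5.06 against Mir222. By construction, reads over both Mir126 hairpins are ambiguous there. Over all reads in the tables the levels were 33980, 142 and 18.7 CPM. Mir222 came to 48.0 CPM when Mir126a, and to 50.0 CPM when Mir378a, was left out of the total.

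With a single library left, the levels ran from 49330 to 109199 CPM for Mir126a, 275 to 399 for Mir221 and 43.8 to 44.5 for Mir222. The mean log2 ratios ran from 2.65 to 3.17 for Mir221 over Mir222, 6.95 to 8.63 for Mir126a over Mir221 and 10.1 to 11.3 for Mir126a over Mir222. No test between libraries could be run with 1 library.

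edgeR's exact test called 2 genes in place of 251, or 0 with the spread estimated per gene (an alternative chosen after seeing the data; 1 gene had an unadjusted p under 0.05). Both gave log2 ratios of -0.90 for Mir126a and 0.78 for Mir221, neither past the threshold. TMM scaling called 124 genes higher and 116 lower in replicate 2 and DESeq2's size factors 136 and 104, beside 90 and 161. They turned the median log2 ratio of the endothelial list from just below 0 to 0.24 and 0.31. The median over all tested genes moved too, from -0.26 to -0.059 with TMM scaling and -0.000145 with DESeq2's size factors. In all, 59 of 77 alternative values kept their direction and side of the threshold or moved by less than the spread. Some of these could not have come out otherwise. With 2 libraries, leaving 1 out shifts a mean by less than its SD. The pseudocount does not enter Fisher's exact test, and the count minimum does not alter a gene's log2 ratio. The 59 also include the log2 ratio of Mir126a without regard to strand, -2.92 from 28 and 1 counts. The tally is thus no measure of robustness.

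With 2 libraries, no spread between animals can be separated from spread between library preparations.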
